A study of Mus musculus with 4 samples.

Results

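The transforming growth factor β (TGF-β) genes described here are 10 mouse genes chosen by name: the ligands *Tgfb1*, *Tgfb2*, and *Tgfb3*, the receptors *Tgfbr1*, *Tgfbr2*, and *Tgfbr3*, the signal transducers *Smad2*, *Smad3*, and *Smad4*, and *Skil*, which encodes the repressor SnoN. All 10 were found among the 21887 protein-coding genes of the RefSeq gene table for GRCm38 (mm10). They and the pathway lists below were chosen with earlier results of these data known. The study profiled acetylation of histone H3 at lysine 27 (H3K27ac), a mark of active promoters and enhancers, by ChIP-Seq in mouse liver sinusoidal endothelial cells (LSECs), in order to find regulatory elements. There were 2 H3K27ac libraries, replicates 2 and 3, of 1 condition, and the inputs numbered alike were not analysed here. For these libraries, the genotype, age, and treatment of the mice, and whether animals were pooled, were not given in the sources used here, nor whether the libraries came from separate animals. In the methods, LSECs were purified from perfused mouse liver with anti-CD146 beads, which bind an endothelial surface protein, and cultured for a few hours before harvest. That isolation passage names *dCas9-KRAB Cdh5* CreERT2 mice, and *Col4a1* fl/wt mice with or without *Cdh5* CreERT2. Which of them, if any, gave these libraries is not stated, nor whether the culture step applied to them.

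TGF-β ligands are secreted in a latent form and, once released, bind the type II receptor TGFBR2, which phosphorylates the type I receptor TGFBR1. Betaglycan, the product of *Tgfbr3*, is a coreceptor that presents ligand. The activated type I receptor phosphorylates SMAD2 and SMAD3, which join SMAD4 and enter the nucleus, where SnoN holds back their transcriptional activity. In the liver, TGF-β is best known for activating hepatic stellate cells (HSCs) during fibrosis, and LSECs are among the cells that release it.

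For 5 of the 10 genes, RefSeq gave the promoter sequence in GRCm38.p6, with its strand. The 250 bases before the transcription start of these 5 are shown because they set the acetylated starts beside that of *Tgfb2*, which no peak covered. Each is written 5′ to 3′, and capitals mark every match to 6 motifs that were searched for on both strands: the SMAD box (GTCTG or CAGAC), the AP-1 site (TGANTCA), the ETS site (CAGGAAG or CTTCCTG), the GATA box (AGATAA or TTATCT), the GC box (GGGCGG or CCGCCC), and the TATA box (TATAAA or TTTATA). No motif contains another, but matches can run together.
*Tgfb1* promoter, chr7:25686752-25687001, plus strand: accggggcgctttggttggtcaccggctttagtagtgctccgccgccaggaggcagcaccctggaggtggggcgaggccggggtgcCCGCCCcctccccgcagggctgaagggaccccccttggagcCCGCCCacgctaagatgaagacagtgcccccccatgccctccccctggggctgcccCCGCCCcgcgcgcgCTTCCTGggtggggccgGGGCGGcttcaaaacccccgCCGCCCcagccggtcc
*Tgfbr1* promoter, chr4:47352972-47353221, plus strand: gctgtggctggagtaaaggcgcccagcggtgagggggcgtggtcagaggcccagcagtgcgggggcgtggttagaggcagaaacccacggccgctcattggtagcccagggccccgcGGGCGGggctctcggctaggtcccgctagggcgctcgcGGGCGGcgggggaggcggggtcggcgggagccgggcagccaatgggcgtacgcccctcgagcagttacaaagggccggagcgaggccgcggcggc
*Smad3* promoter, chr9:63757995-63758244, minus strand: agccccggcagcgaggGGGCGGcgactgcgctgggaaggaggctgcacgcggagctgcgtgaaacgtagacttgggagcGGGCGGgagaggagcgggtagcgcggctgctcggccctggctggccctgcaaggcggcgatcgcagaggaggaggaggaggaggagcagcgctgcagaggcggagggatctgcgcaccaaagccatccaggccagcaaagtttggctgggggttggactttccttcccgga
*Tgfbr2* promoter, chr9:116175364-116175613, minus strand: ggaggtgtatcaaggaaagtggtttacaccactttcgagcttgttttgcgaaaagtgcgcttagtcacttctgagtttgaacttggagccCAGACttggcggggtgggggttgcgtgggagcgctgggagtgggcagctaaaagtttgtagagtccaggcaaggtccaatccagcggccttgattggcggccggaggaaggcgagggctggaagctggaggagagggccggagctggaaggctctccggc
*Tgfb2* promoter, chr1:186705990-186706239, minus strand: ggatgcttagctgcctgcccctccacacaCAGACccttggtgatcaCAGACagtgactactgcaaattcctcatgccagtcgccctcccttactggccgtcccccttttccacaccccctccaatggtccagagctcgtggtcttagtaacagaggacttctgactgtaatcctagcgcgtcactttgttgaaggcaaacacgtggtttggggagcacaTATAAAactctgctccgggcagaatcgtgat
In both libraries, peaks covered all 250 bases at *Tgfb1*, *Tgfbr1*, and *Smad3*. At *Tgfbr2*, the replicate 3 peak covered all 250 bases, whereas the replicate 2 peak covered 0 and began 14 bp on the transcribed side of the start. At *Tgfb2*, neither library covered a base. The *Tgfb1* sequence held 5 GC boxes and 1 ETS site, and those of *Tgfbr1* and *Smad3* held 2 GC boxes each. The *Tgfbr2* sequence held 1 SMAD box and no GC box. The *Tgfb2* sequence held 2 SMAD boxes, 1 TATA box, and no GC box. Among all 32851 promoters of the RefSeq table, a GC box was present in 32.7%, a SMAD box in 42.2%, an ETS site in 10.8%, and a TATA box in 12.4% of the 250 bases before the start. Among the 9782 promoters (29.8%) with peaks of both libraries on the 250 bases before or the 50 after the start, these shares were 65.6%, 38.8%, 9.69%, and 4.96%. No sequence of the 5 held an AP-1 site or a GATA box, which were present in 6.75% and 9.99% of all promoters. The share of G and C was 75.2% at *Tgfb1*, 74.8% at *Tgfbr1*, 69.2% at *Smad3*, 58.4% at *Tgfbr2*, and 53.6% at *Tgfb2*. A motif match describes these letters only. RefSeq lists another start of *Tgfbr1* inside the gene, and no peak covered it, the nearest one lying 5848 bp away in replicate 3 and 11154 bp away in replicate 2.

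The replicate 2 list held 26975 peaks and the replicate 3 list 64498, which was 2.39 times as many. Each peak has a fold enrichment, the authors' ratio of signal over background, and a q-value. The numbers of reads were not given, so the depth is unknown, and fold enrichments were compared within a library only, as values or as percentiles of that library's list. The values came in steps, and 98.7% of replicate 2 peaks shared theirs with another peak. Of 16 LSEC marker genes, 12 had a peak within 1 kb of a gene end in both libraries and the other 4 in replicate 3 only, and 15 had a shared region elsewhere in the gene or within 10 kb of it. Among all protein-coding genes, 43.4% had the former in both libraries and 39.3% the latter. In the other lists, an end peak in both libraries was present at 0 of 12 HSC, 2 of 11 Kupffer cell and macrophage, 1 of 12 hepatocyte, 0 of 6 cholangiocyte, and 1 of 7 lymphocyte markers. An end peak in replicate 3 only was present at 1, 0, 2, 1, and 1 of them, and a shared region elsewhere at 1, 2, 3, 1, and 3, in the same order. The HSC genes *Lrat*, *Reln*, *Des*, and *Pdgfrb* and the Kupffer cell genes *Clec4f*, *Timd4*, and *Vsig4* had no end peak in either library, whereas the macrophage genes *Cd68* and *Spi1* had one in both. Of the other HSC genes, *Col1a1* had an end peak in replicate 3 only (12.0), and *Pdgfra* had 2 shared regions elsewhere. The part of other cell types in the TGF-β peaks was not tested. In a bulk library, a mark in fewer cells cannot be told apart from less of the mark in each cell.

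Of the 10 TGF-β genes, 9 had a shared end peak, meaning that replicate 2 and replicate 3 peaks that overlapped by at least 1 bp both reached within 1 kb of an end of the gene. Among all protein-coding genes the share was 43.4%, and among those of at least 50 kb it was 47.6%. The exception was *Tgfb2*, which had no end peak in either library, as did 46.1% of all protein-coding genes. Ends here are the outermost annotated ones. A replicate 3 peak of 9.44 did lie 511 bp from the *Tgfb2* start of the promoter sequence above. Each library alone also gave 9 of the 10, against 43.4% of all protein-coding genes in replicate 2 and 53.9% in replicate 3. When peaks had to overlap by 50% of each, 5 of the 10 had a shared end peak (*Tgfb1*, *Tgfbr2*, *Tgfbr3*, *Smad2*, and *Smad4*), against 22.0% of all protein-coding genes. The strongest end peaks of the 9 genes had a median fold enrichment of 19.4 in replicate 2 (range, 7.78 to 43.4) and 63.7 in replicate 3 (range, 13.1 to 127). The medians over the 9491 protein-coding genes with such a peak were 16.3 and 47.3. *Skil* and *Tgfbr1* stood highest in both libraries and *Tgfb3* lowest in replicate 3. *Smad2*, *Tgfb1*, and *Smad4* followed in that order in both, whereas *Smad3*, *Tgfb3*, *Tgfbr3*, and *Tgfbr2* were ordered differently in each. The place of *Tgfb1* in replicate 3 rests on a peak inside the gene (80.4), and its start peak (53.4) would stand below that of *Smad4* (63.7). With 1 value per library, neighbours in the order cannot be told apart by replicate spread.

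**Figure D1:**
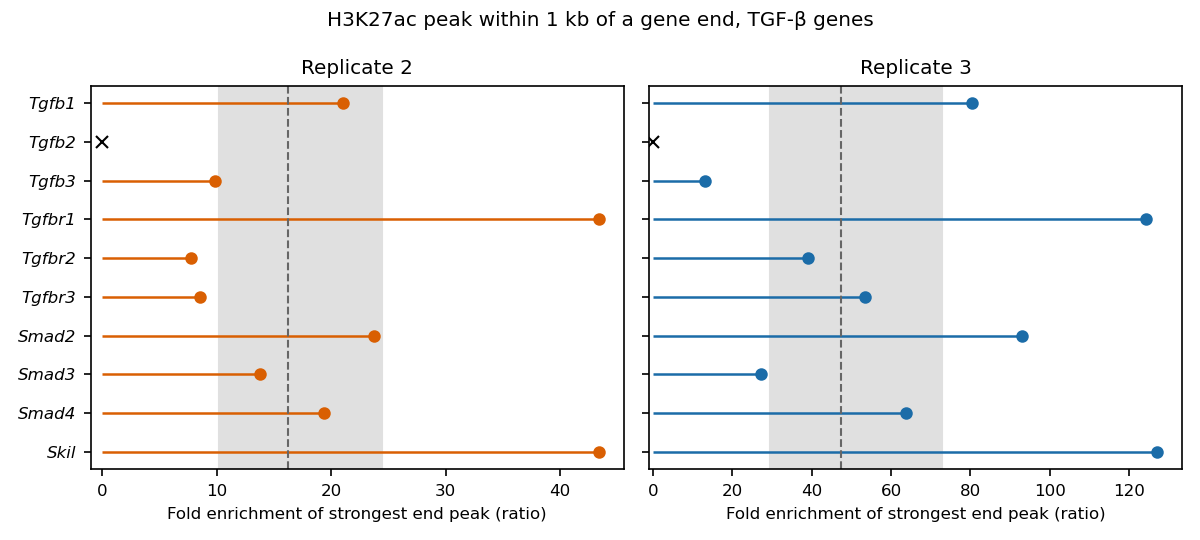
Fold enrichment of the strongest H3K27ac peak within 1 kb of either gene end for the 10 TGF-β genes in replicates 2 and 3 (1 point per gene and library, crosses for no peak). Dashed lines and grey bands are the median and interquartile range over the 9491 protein-coding genes with a shared end peak, and *Skil* (43.4 and 127) and *Tgfbr1* (43.4 and 124) lie above both bands while *Tgfb3* (9.82 and 13.1) lies below both. At *Tgfb1*, the point is the start peak in replicate 2 and a peak inside the gene in replicate 3.

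The 3 ligand genes differed widely. *Tgfb1*, the ligand most studied in liver fibrosis, had the largest share of its gene body under shared peaks of the 10. Its transcription start lay under a peak of 21.0-fold enrichment in replicate 2 and 53.4-fold in replicate 3, at the 84.9th and 92.5th percentiles of the lists. A second and stronger region, chr7:25687864-25690270, followed inside the gene, with 25.8 in replicate 2 and 80.4 in replicate 3. The replicate 2 peak of this region lay outside the 1 kb window, and the summits lay 2.35 kb past the start in replicate 2 and 2.33 kb past it in replicate 3. Another, chr7:25705542-25706218, lay just beyond the far end of the gene, with 19.9 and 35.9. Of these 3 regions the inner one was the highest in both libraries. Within 10 kb of the gene there were 4 further shared regions. Of these, that at chr7:25680096-25681300 (23.0 and 62.5) was within 1 kb of the ends of *Tmem91* and *B9d2*, and that at chr7:25711680-25712240 (14.2 and 22.7) was within 1 kb of an end of *Ccdc97*. *B9d2* also ends within 1 kb of the *Tgfb1* start peak, which can therefore not be assigned to 1 of these genes.

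*Tgfb2*, whose product depends on betaglycan for high-affinity receptor binding, had 0 peaks in replicate 2 and 1 in replicate 3 over its 86.9 kb and the 10 kb on each side. That peak, chr1:186705180-186705478, had 9.44, at the 52.4th percentile. It lay 511 bp on the transcribed side of the start given with the promoter sequence above, but more than 1 kb from the gene's outermost annotated end, and was therefore counted as distal. Of all protein-coding genes, 36.2% had at most 1 peak in the same window with both libraries counted. *Tgfb2* was also the 1 gene of the 10 with no shared region in its window, whereas 58.5% of all protein-coding genes had at least 1. The nearest shared region lay 39.3 kb beyond the upper end, at chr1:186749005-186749846, within 1 kb of an end of *Rrp15*. On the other side the nearest lay 223 kb away.

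*Tgfb3* had 1 shared region, chr12:86079113-86079758, within 1 kb of its upper end. Its fold enrichment was 9.82 in replicate 2 and 13.1 in replicate 3, at the 50.2nd and 64.0th percentiles. Among genes with a shared end peak, these values were at the 22.9th and 3.75th percentiles. The 2 other replicate 3 peaks of the window lay beyond that end. One of them, with 26.4, was within 1 kb of an end of *Ift43* and had no replicate 2 peak, the highest fold enrichment of any replicate 3 peak in the 10 windows without one.

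The receptor genes carried acetylation at an end and inside the gene, in different proportions. *Tgfbr1*, the type I receptor and kinase, had the highest receptor peak, chr4:47352127-47353751, with 43.4 in replicate 2 and 124 in replicate 3. These values were at the 99.2nd and 99.5th percentiles of the lists, and the summits lay at -103 and -108 bp from the start. An end of the noncoding gene *Gm32435* lies within 1 kb of it. Inside the gene, the 2 shared regions were weaker, with 12.9 and 22.0 in the first and 8.54 and 10.5 in the second (replicates 2 and 3).

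*Tgfbr2*, the ligand-binding type II receptor, had a peak at its start of 7.78 in replicate 2 and 39.1 in replicate 3. The 2 libraries placed it differently within their lists, at the 34.7th and 87.7th percentiles. The replicate 2 peak was 183 bp wide and that of replicate 3 1510 bp. An end of the noncoding gene *Gm40582* lies within 1 kb. At the other end of the gene a second region had 7.46 and 10.7. The 2 shared regions inside the gene had 7.46 in replicate 2 each, and 19.95 and 8.47 in replicate 3. The replicate 2 values at the start and inside were thus close together, and those of replicate 3 were not.

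*Tgfbr3*, the longest of the 10 genes at 183 kb, had 8 shared distal regions, more than any other member. At its upper end, the peak had 8.54 in replicate 2 and 53.4 in replicate 3, at the 41.0th and 92.5th percentiles. Its lower end had a peak in replicate 3 only, with 10.3. Of the 8 distal regions, 7 lay inside the gene and 1 lay 5.75 kb beyond its upper end. The highest, chr5:107199930-107201791, lay 94.6 kb from the lower end, near the middle of the gene, with 20.9 in replicate 2 and 77.5 in replicate 3. The next in both libraries, chr5:107111181-107112508, had 12.9 and 49.8. The 7 inside ranged from 8.13 to 20.9 in replicate 2 and from 18.6 to 77.5 in replicate 3.

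**Figure D2:**
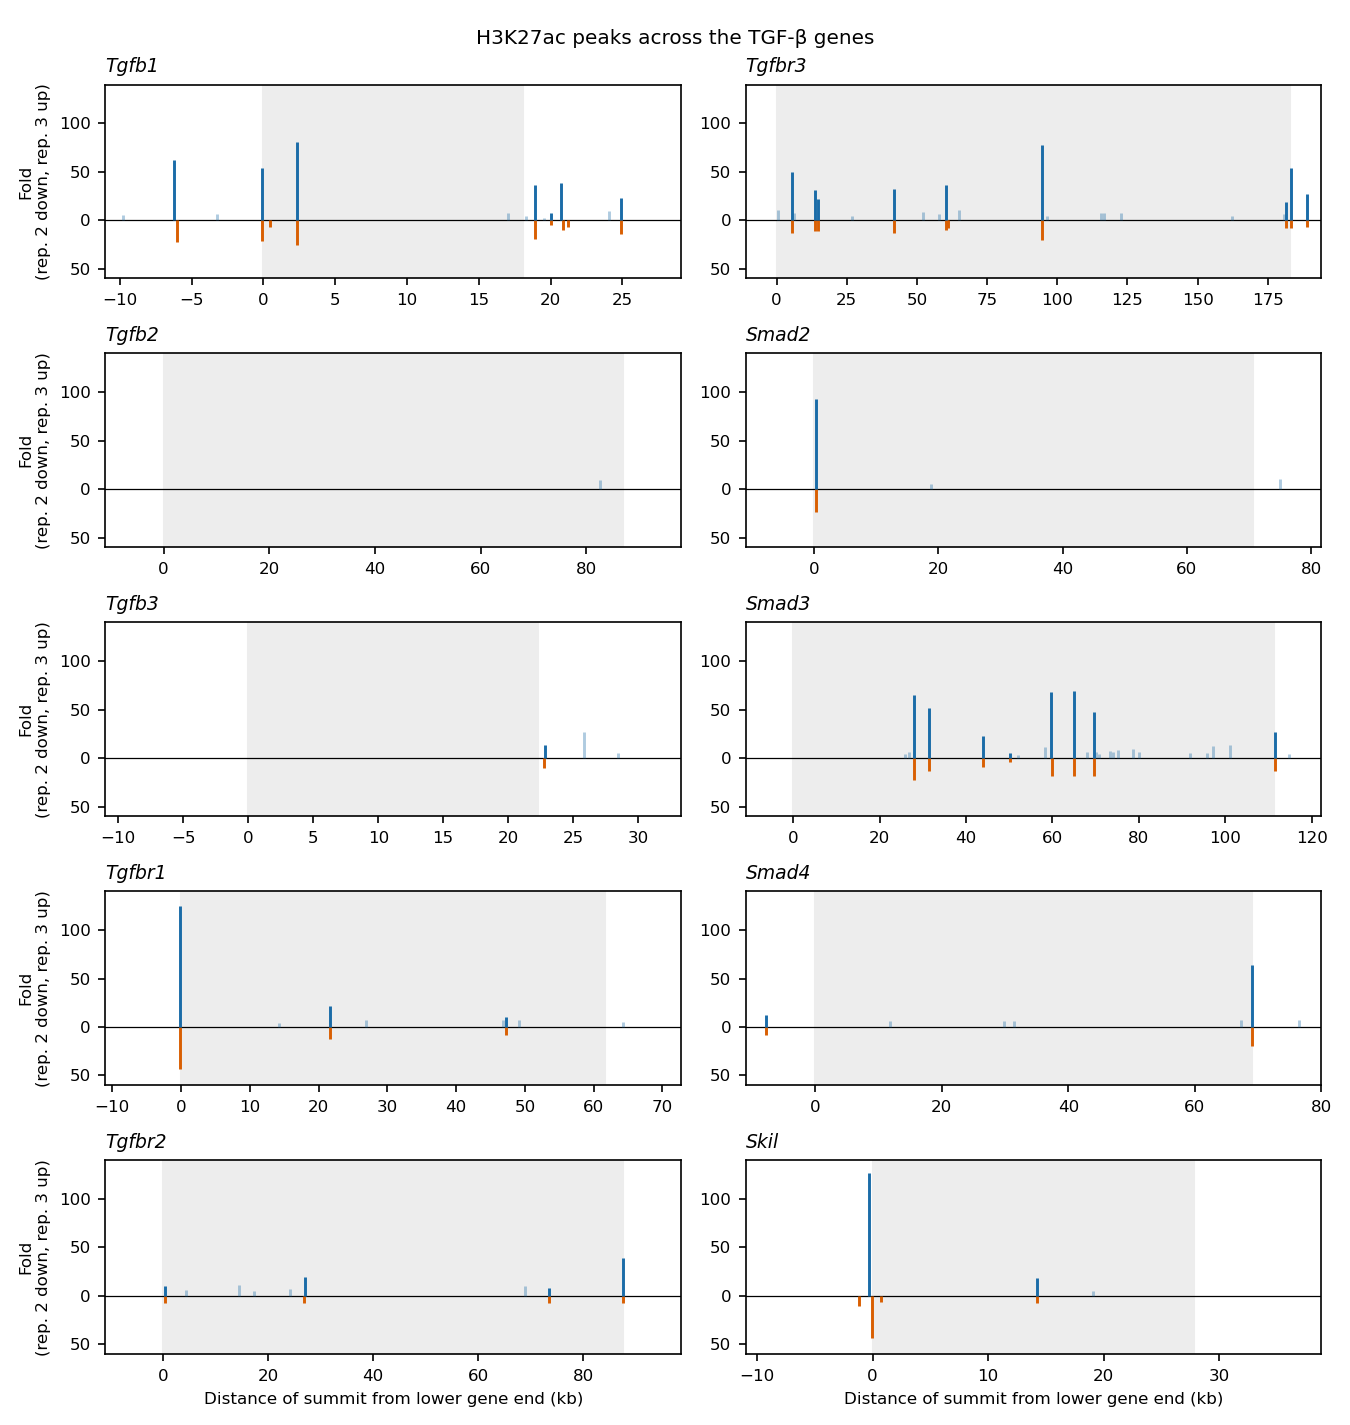
H3K27ac peaks across the 10 TGF-β genes, by distance of the peak summit from the end of the gene with the lower coordinate (kb), with fold enrichment upward for replicate 3 and downward for replicate 2. Grey spans are gene bodies, and pale lines are replicate 3 peaks without a replicate 2 peak. *Smad3*, *Tgfbr3*, and *Tgfb1* carry their highest lines inside the gene, the last close to its start, whereas *Tgfbr1*, *Smad2*, *Smad4*, and *Skil* carry theirs at an end.

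Among the signal transducers, *Smad2* and *Smad4* had acetylation at an end and little elsewhere. *Smad2*, a receptor-activated SMAD, had 1 shared region, chr18:76240775-76242706, spanning its lower end, with 23.7 in replicate 2 and 93.1 in replicate 3. These were at the 88.8th and 98.2nd percentiles. Its other 2 replicate 3 peaks had 5.31 and 10.1 and no replicate 2 peak. *Smad4*, the common partner of the activated SMADs, had a region spanning its upper end, chr18:73703050-73704363, with 19.4 and 63.7, at the 81.7th and 94.8th percentiles. An end of the noncoding gene *4930578L24Rik* lies within 1 kb. The other shared region of *Smad4* lay outside the gene, 7.47 kb below its lower end, with 8.13 and 12.4.

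*Smad3*, the other receptor-activated SMAD, had the reverse layout. At its start, the peak had 13.8 in replicate 2 and 27.2 in replicate 3, at the 67.7th and 81.2nd percentiles. Inside the gene, 7 shared regions fell within 42.3 kb, chr9:63674458-63716767, and their summits in replicate 3 lay 41.6 to 83.2 kb from the start. Of these 7, the median fold enrichment was 18.9 in replicate 2 and 51.8 in replicate 3. The highest was chr9:63674458-63675152 in replicate 2, with 22.4 (64.8 in replicate 3), and chr9:63711074-63712102 in replicate 3, with 69.0 (18.9 in replicate 2). The weakest, chr9:63696768-63697015, had 4.09 and 5.27, at the 0.356th and 21.3rd percentiles. In replicate 3, another 17 distal peaks of *Smad3* had no replicate 2 peak, and the highest of these had 13.2.

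*Skil* encodes SnoN, which binds SMAD complexes, represses their targets, and is itself induced by TGF-β. Its lower end lay under the strongest end peak of the 10 genes in replicate 3, chr3:31093659-31096174, with 127, at the 99.6th percentile. In replicate 2, 3 separate peaks fell within that interval, with 10.8, 43.4, and 6.78. The value of 43.4 was exactly that of *Tgfbr1* in replicate 2, a value that 21 peaks of the list shared. Both libraries thus placed the end of *Skil* among their highest peaks. One further shared region, inside the gene, had 7.62 and 18.9.

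Over the 10 windows of gene body plus 10 kb on each side, replicate 2 had 43 peaks and replicate 3 had 93. Merging the overlapping peaks gave 37 shared regions, of which 12 reached within 1 kb of an end of the gene and 25 were distal. Counted in replicate 3 alone there were 78 distal peaks, and in replicate 2 alone 29. Of the 25 distal regions, 19 lay inside a gene body and 6 in a flank, and 2 of the 6, both beside *Tgfb1*, were within 1 kb of an end of another gene. At least 1 distal region was present at 7 of the 10 genes, against 39.3% of all protein-coding genes. *Tgfb2*, *Tgfb3*, and *Smad2* had none. The median number per gene was 0 over all protein-coding genes, 1 over those of at least 50 kb, and 1.5 over the 10. The share with at least 1 distal region was not counted for genes of at least 50 kb alone. *Tgfbr3* with 8 and *Smad3* with 7 held 15 of the 25. Among the 4945 protein-coding genes that span 50 kb or more, 5.36% had 7 or more, a limit set after these counts were seen, and 2 of the 7 TGF-β genes of that length did.

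**Figure D3:**
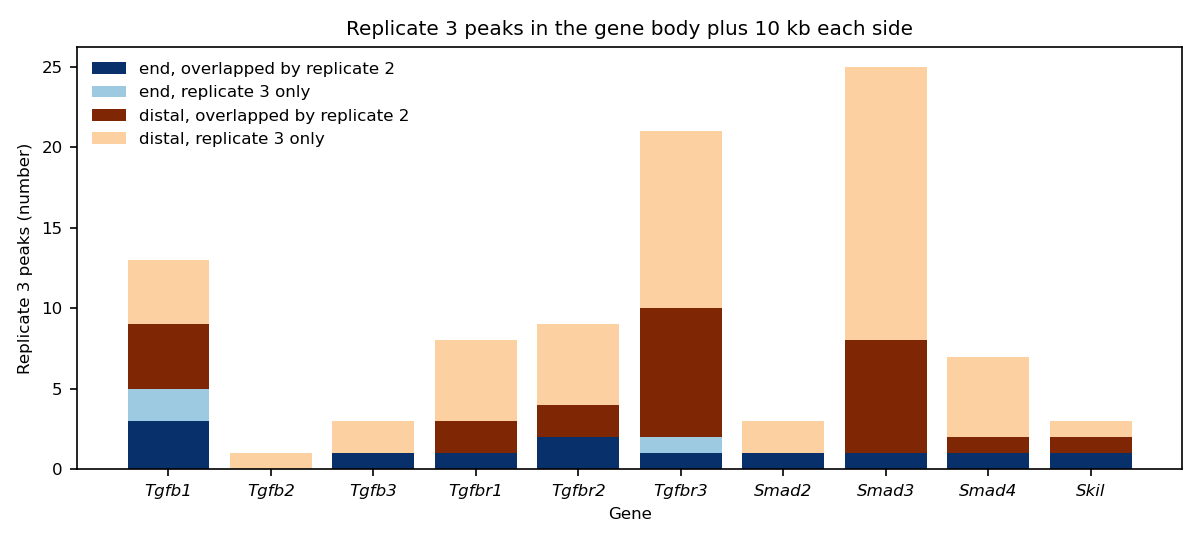
Number of replicate 3 peaks in the gene body plus 10 kb on each side for each TGF-β gene, split by place (within 1 kb of an end, or distal) and by overlap with a replicate 2 peak. *Smad3* has 25 peaks and *Tgfbr3* 21, most of them distal and without a replicate 2 peak, and *Tgfb2* has 1.

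The strongest distal region inside the gene exceeded the strongest end peak at *Smad3* and *Tgfbr3* in both libraries. At *Smad3* the ratio of inside to end was 1.63 in replicate 2 and 2.54 in replicate 3, and at *Tgfbr3* it was 2.45 and 1.45. At *Tgfbr2* it was 0.958 and 0.511, at *Tgfbr1* 0.297 and 0.177, and at *Skil* 0.176 and 0.149. The order of these 5 genes was therefore alike in the libraries except that *Smad3* and *Tgfbr3* changed places. Of the 2582 protein-coding genes with a shared end peak and such a region inside, the inside value was the higher in both libraries for 26.3%, a count taken after the pattern at *Smad3* and *Tgfbr3* had been seen. The inside value was the highest of 7 regions at *Smad3* and at *Tgfbr3*. It was the highest of 2 at *Tgfbr1* and at *Tgfbr2*, and the only 1 at *Skil*. Neither the number of regions nor gene length was matched in these comparisons. The other 4 genes with a shared end peak had no distal region inside. Of these, *Tgfb1* had an inner region that was counted with the end because its replicate 3 peak reached within 1 kb of the start. The replicate 2 peak of that region (25.8) did not, and it was higher than the strongest end peak of replicate 2 (21.0).

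**Figure D4:**
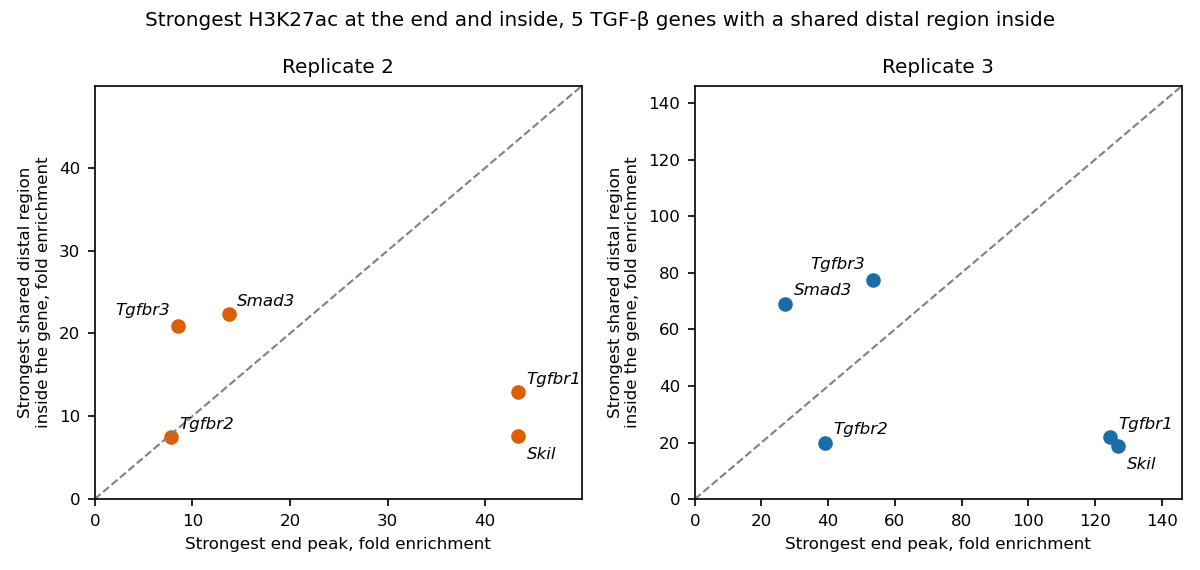
Fold enrichment of the strongest shared distal region inside the gene against that of the strongest end peak, for the 5 TGF-β genes with both (1 point per gene, replicate 2 on the left and replicate 3 on the right, equality dashed). *Smad3* (22.4 against 13.8, and 69.0 against 27.2) and *Tgfbr3* (20.9 against 8.54, and 77.5 against 53.4) lie above the line, and *Tgfbr1* and *Skil* lie far below it.

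The share of each gene body covered by shared peaks, a percentage of gene length, ordered the genes differently. A peak of a given width fills more of a short gene, so this share does not remove the part of length. The percentiles among all protein-coding genes were not matched for length. It was 7.04% at *Tgfb1*, which is 18.1 kb long, 3.48% at *Smad3* (111 kb), and 2.14% at *Skil* (27.9 kb). At *Tgfbr3* it was 2.10%, at *Smad2* 1.80%, at *Tgfbr1* 1.42%, at *Tgfbr2* 1.00%, and at *Smad4* 0.468%. At *Tgfb2* and *Tgfb3* it was 0%, the end peak of *Tgfb3* lying outside the gene body. The median over the 10 genes was 1.61%, against 0% over all protein-coding genes and 0.272% over those of at least 50 kb. Among all protein-coding genes, *Tgfb1* stood at the 94.99th and *Smad3* at the 88.3rd percentile, and the lowest with any cover, *Smad4*, at the 58.9th.

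All 43 replicate 2 peaks of the TGF-β windows overlapped a replicate 3 peak, against 99.2% of the whole list. Of the 93 replicate 3 peaks, 39.8% overlapped a replicate 2 peak (95% Wilson interval, 30.4% to 49.9%, for counting error only), against 37.7% of the whole list. This share rose with fold enrichment. It was 0 of 12 below 5, which allows a share of up to 24.2% by the same interval, 3 of 38 from 5 to 10, 7 of 15 from 10 to 20, 14 of 15 from 20 to 50, and 13 of 13 from 50. Over the whole list, the shares in these ranges were 2.11%, 8.71%, 47.6%, 94.96%, and 100%. The 56 TGF-β peaks of replicate 3 alone had a median of 6.32, and all peaks of replicate 3 alone one of 6.20. A site without a replicate 2 peak was not detected there at an unknown depth, and is not shown to lack the mark.

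Beyond the 10 genes, 48 further genes of the pathway were counted in 4 lists by role. A shared end peak was present at 29 of the 48, or 60.4%, against the 43.4% of all protein-coding genes, and another 10 had one in replicate 3 only. With an overlap of 50% of each peak, it was present at 15 of the 48, or 31.2%, against 22.0%. The lists lay on either side of that background, with 11 of 12 for other SMADs, the adaptor SARA, and inhibitors, 7 of 8 for coreceptors and other receptors, 10 of 16 for target genes, and 1 of 12 for genes of ligand storage and activation. No test was made of these lists, and *Eng*, *Dcn*, and *Col1a1* also stand in the marker lists above. Either end of a gene counted, and peaks near an end of another gene were not marked for these lists.

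Among the other SMADs and inhibitors, *Smad1*, *Smad5*, *Smad6*, *Smad7*, *Zfyve9* (SARA), *Smurf1*, *Smurf2*, *Ski*, *Tgif1*, *Tgif2*, and *Pmepa1* had a shared end peak, and *Smad9* had none. *Smad1* and *Smad5* transduce bone morphogenetic protein signals, *Smad6* and *Smad7* are inhibitory, and the *Smurf* genes encode ubiquitin ligases for receptors and SMADs. The highest were *Ski*, the relative of *Skil*, with 50.2 in replicate 2 and 128 in replicate 3, the corepressor *Tgif1* with 23.7 and 70.4, and *Pmepa1*, a target that dampens the pathway, with 21.0 and 67.9. *Ski* thus stood beside *Skil* near the top of both lists, at the 99.8th and 99.6th percentiles.

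Among the coreceptors and other receptors, *Eng*, *Acvrl1*, *Acvr1*, *Acvr1b*, *Acvr2a*, *Acvr2b*, and *Bambi* had a shared end peak, and *Acvr1c* had none. *Bambi*, a pseudoreceptor that blocks signalling, was the highest, with 31.7 and 145. *Acvr2b* and *Acvr1b*, receptors for activin, had 23.7 and 88.2, and 19.0 and 43.6. The endothelial coreceptor *Eng* and the endothelial type I receptor *Acvrl1* had lower values at their ends, 6.10 and 14.1, and 6.08 and 23.9, and *Eng* also had 4 shared distal regions. The most in this list were the 7 of *Acvr1*, and *Acvrl1* had 1.

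Among the genes of ligand storage and activation, *Lrrc32*, which encodes the anchor protein GARP for latent TGF-β, was the only one of the 12 with a shared end peak, with 10.8 and 25.4. *Ltbp1*, *Ltbp2*, *Furin*, *Itgb8*, and *Nrros* had one in replicate 3 only, and *Ltbp3*, *Ltbp4*, *Thbs1*, *Itgav*, *Itgb6*, and *Dcn* had none. The replicate 3 peak at *Furin*, with 52.2, did overlap a replicate 2 peak with 21.7, but the latter lay outside the 1 kb window. With 2.5 kb, *Furin*, *Ltbp2*, and *Itgav* also had a shared peak, but the share of all protein-coding genes at that window was not counted. At least 1 shared distal region was present at 8 of these 12 genes, against 39.3% of all protein-coding genes. Gene length was not matched in this comparison. The median number of such regions was 0 over all protein-coding genes and 1 over those of at least 50 kb. *Itgav*, an integrin chain that takes part in releasing latent TGF-β, had 7 such regions.

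Among the target genes, those with a shared end peak included *Id1*, *Id2*, *Id3*, *Snai1*, *Snai2*, *Zeb1*, *Junb*, *Cdkn1a*, and *Cdkn2b*. The highest in replicate 3 were *Id2* with 22.9 and 81.5, *Junb* with 34.6 and 71.0, and *Id3* with 15.6 and 60.9, all of them transcription regulators. In replicate 2, *Cdkn2b* with 20.4 stood above *Id3*. *Ccn2*, *Zeb2*, *Col1a1*, *Acta2*, and *Tagln* had one in replicate 3 only, ranging from 5.61 to 12.4, and *Fn1* had none. *Zeb2* also had 7 shared distal regions and *Acta2* 1, whereas *Ccn2*, *Col1a1*, *Tagln*, and *Fn1* had 0. *Col1a1*, *Acta2*, and *Tagln* are best known from activated HSCs and smooth muscle.

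**Figure D5:**
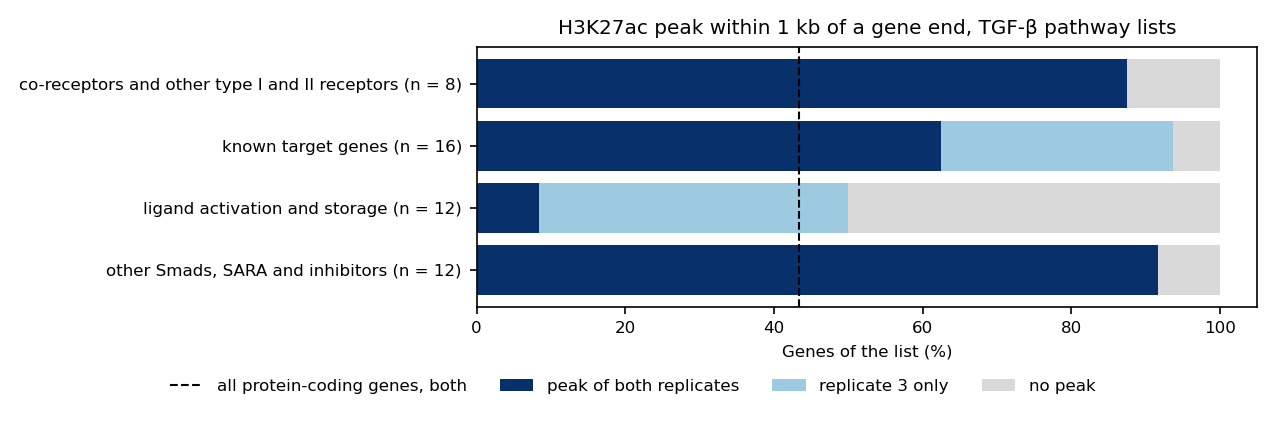
Share of the genes of each TGF-β pathway list with an H3K27ac peak within 1 kb of a gene end in both replicates, in replicate 3 only, or in neither (n, genes per list). The dashed line is the 43.4% of all protein-coding genes, and the list of ligand storage and activation (1 of 12) lies below it whereas the other 3 lists lie above it.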

How the data were processed

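H3K27ac ChIP-Seq peaks of 2 LSEC libraries, replicates 2 and 3, were analysed. Per the labels, the chromatin was sheared by sonication, whereas the study describes fragmentation by tagmentation, and which applies to these libraries was not resolved. The submitters' processing notes name cutadapt 0.4.4, BWA 0.7.17, Picard 1.67, MACS2 2.0.10, bedtools 2.27.1, and the build mm10. Whether the inputs served as controls for the calls is not given in the sources used here. Peaks were called per library, not on pooled libraries. The authors' deposited lists give positions, a fold enrichment (a ratio of signal to background), the −log10 of the p-value and of the q-value, and a score, which equals 10 times the −log10 q-value cut to a whole number. The lists give no read counts, so depth is unknown.

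Peaks overlapping a gene body plus 10 kb on each side were taken for each gene of the RefSeq table of GRCm38, and split by whether they reached within 1 kb of either end. Peaks overlapping by at least 1 bp were called shared and merged into regions. Covered share is the percentage of the gene body under overlapping peaks of both libraries. Positions are counted from 1. The gene table gives no strand, which was taken from RefSeq promoter sequences for 5 of the 10 genes. Genes named are the 10 genes, the genes of the pathway lists by class (1 is counted but not reported here by name), and values for the 3 of each list with the highest replicate 3 fold enrichment. The values given for *Furin*, *Eng*, *Acvrl1*, *Itgav*, and *Cdkn2b*, and the range over targets in replicate 3 only, were chosen after their values had been seen. So were the distal counts given for *Acvr1* and for targets without a shared end peak. The members and lists were chosen with earlier results of these data known. As both libraries are of 1 condition, nothing was tested between conditions. The overlap and gene calls were tested on simulated data. Alternatives were to require a reciprocal overlap of 50%, to keep q-values up to 1e-05, to cut both lists to equal length by strength, other windows, flanks, and gene lengths, the 5′ end alone, placing by summit, and each library alone. The tools were matplotlib 3.10.9, scipy 1.17.1, numpy 2.4.6, and pandas 2.3.3 under Python 3.11.15.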

Additional observations from a re-analysis of the deposited data

How the results depend on the processing

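No paired analysis was possible because the samples numbered alike are an H3K27ac library and its input, no input was analysed, and no result comes from a test. Requiring 50% reciprocal overlap gave 19 shared regions in the windows in place of 37, 5 members with a shared peak at a gene end in place of 9, 14 distal regions in place of 25, 15 pathway genes in place of 29 (all protein-coding genes, 22.0% in place of 43.4%), and 20.4% of replicate 3 peaks with a replicate 2 peak in place of 39.8%. With both lists cut to equal length by strength, that share was 89.2%. With the 5′ end alone, 4 members had a shared peak there, of the 5 whose start was in the promoter table. For the pathway genes it was 24, of the 33 whose start was in that table. Leaving out either library, the regions in the windows ranged from 43 to 93, distal regions from 29 to 78, pathway genes from 29 to 39, and the median covered-share percentile of the members, 76.5, from 69.7 to 76.3, and the number of members with an end peak stayed at 9. In each range but that of the percentile, the higher value was without replicate 2. Of 94 values under alternatives, 63 stayed within the limit set for them and 31 moved, 21 of the 31 being covered-share percentiles of single genes. The limit was a factor of 1.5 for counts and the 95% Wilson interval for the share of replicate 3 peaks. For percentiles it was the standard deviation of the values from each library alone, so it differed by gene. With lists of equal length, *Tgfb1* at 95.1 counted as moved. With genes of at least 10 kb, *Tgfb2* at 19.8 did not. Requiring more overlap, fewer peaks, or 1 library changes by construction what is counted, and other causes were not tested. Unknown depth limits what the absence of a peak can show.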

Other observations

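The surroundings of the TGF-β genes differed in how far the next shared region lay from the gene body. For *Tgfbr2* it lay 776 kb away below the lower end, at chr9:115309615-115311444 beside *Stt3b*, with fold enrichments of 31.9 in replicate 2 and 135 in replicate 3, and 465 kb away above the upper end, where the values were 7.46 and 11.5. For *Smad2* the distances were 316 kb and 618 kb. For *Skil* they were 38.0 kb and 1241 kb, the longest of these gaps. For *Tgfbr3* they were 18.8 kb and 5.42 kb, and for *Smad4* 7.47 kb and 26.3 kb. These distances are given for the deposited lists as they stand, and the density of genes around each was not taken into account.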
